A study of Rattus norvegicus with 30 samples.

Results

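The genes described here are those by which cells show peptides to T cells, tag debris through complement and answer interferon, measured in the amygdala of rats. They were taken by gene symbol: the RT1 genes (the rat major histocompatibility complex, MHC), Tap1, Tap2, Tapbp, B2m and Cd74, the immunoproteasome genes Psmb8, Psmb9 and Psmb10, the complement genes C1 to C4, and the Irf, Ifi and Stat2 genes. The symbols matched 79 of the 22523 probes on the array, none of them for complement C3. Of these, 55 probes for 54 genes exceeded the median intensity of an array in at least 5 rats and were kept, and 24 were dropped. The filter kept 13308 probes in all. Kept probes stood for 14 class I heavy chain genes, 4 peptide loading genes, 3 immunoproteasome genes (with 2 probes for Psmb10), 6 class II genes with Cd74 among them, 7 complement genes, 6 Irf and Stat genes and 10 Ifi genes. A further 4 probes, for C1d, C1qbp, Irf2bp1 and Irf2bpl, matched the symbol pattern although their proteins belong to none of these families.

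MHC class I molecules display peptides cut from the cell's own proteins. The immunoproteasome cuts such peptides, Tap1 and Tap2 pump them into the endoplasmic reticulum, tapasin (Tapbp) helps to load them, and beta-2 microglobulin (B2m) holds the heavy chain in shape. Class II molecules display peptides from engulfed material. Interferons raise the transcription of many of these genes through Stat and Irf factors, and in the brain microglia are the main source of C1q, which starts the classical complement cascade and also marks synapses for removal.

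RNA came from the amygdala of 30 adult rats of the outbred Sprague Dawley strain, whose MHC types the labels do not give, with 1 Illumina BeadChip per rat. The labels class the rats as controls, as minimal behavioural responders or as extreme behavioural responders, in females and in males, which gave 6 groups of 5 rats. Rat identifiers begin with F in all females and end in R in all males. What these letters mark is not stated, so sex cannot be told apart from any series of rats that they name. The labels do not describe what the responders were exposed to. That it was the scent of a predator is general knowledge of this study, which no source used here gives. Minimal and extreme rats together are called exposed, and they are set apart from each other by their behaviour and not by a treatment named in the labels. All 8 neuronal, 5 of 6 astrocyte and 7 of 8 oligodendrocyte markers looked up were measured in the tissue. Values are the authors' normalised log2 intensities. Differences are given on the log2 scale ± the standard error (SE) of 1 limma fit over all 30 arrays, with p-values adjusted over all 13308 probes, and a probe was called at an adjusted p under 0.05. Precision is limited by there being 5 arrays in a group.

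Arrays fell into 2 states that crossed the groups, seen in the Rpl37l1 probe, whose log2 intensity was 8.98 to 10.07 on 14 arrays and 11.91 to 12.73 on 16 arrays. Every female control and every male extreme rat fell on the lower side, and every male control on the higher. Lower-state arrays outside these groups were numbers 2 and 3 of female minimal, number 2 of female extreme and number 1 of male minimal. State and group could therefore not be told apart for male extreme against male control rats. For females, the state was added to the fit as a covariate, and 1 female extreme array was left for a comparison within the lower state.

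Promoters of the members were searched for the letters that interferon-responsive factors recognise, because many of these genes are known interferon targets. The core of the interferon-stimulated response element, GAAA followed by any 2 bases and GAAA again, was present on either strand in the 250 bases before the start of 13 of 46 member genes with a promoter in RefSeq (28.3%), against 3.29% of 27457 promoters of the rat assembly GRCr8. The core of the gamma-activated sequence, TTC and GAA with any 3 bases between them, was present in 9 of 46 (19.6%), against 7.52% of all. The promoters below belong to Psmb10, Tap2 and RT1-M3-1, whose probes were called in the comparisons that follow, and to Tapbp, whose level separated female extreme rats from all other female rats. Each is given from its upstream end to the last base before the start of transcription, along the gene's own strand, with matches to either core in capitals. All 4 hold a match. Of the other called members, Irf9 had 1 gamma-activated core, and RT1-T18, Irf3 and Irf2bpl had 0 matches to either core. C1qc, also called, had no promoter to search.
Psmb10 (chr19:50743293-50743542, minus strand): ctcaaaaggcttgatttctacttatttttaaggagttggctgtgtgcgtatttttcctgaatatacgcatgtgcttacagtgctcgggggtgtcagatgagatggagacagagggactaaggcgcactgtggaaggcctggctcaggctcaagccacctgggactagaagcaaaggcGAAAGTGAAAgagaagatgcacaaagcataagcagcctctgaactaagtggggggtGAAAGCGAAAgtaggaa
Tap2 (chr20:4652297-4652546, minus strand): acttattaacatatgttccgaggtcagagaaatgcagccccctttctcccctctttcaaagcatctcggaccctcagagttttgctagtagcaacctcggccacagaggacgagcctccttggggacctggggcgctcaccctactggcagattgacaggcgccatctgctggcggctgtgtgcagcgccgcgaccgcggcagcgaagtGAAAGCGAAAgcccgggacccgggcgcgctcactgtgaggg
Tapbp (chr20:4967878-4968127, minus strand): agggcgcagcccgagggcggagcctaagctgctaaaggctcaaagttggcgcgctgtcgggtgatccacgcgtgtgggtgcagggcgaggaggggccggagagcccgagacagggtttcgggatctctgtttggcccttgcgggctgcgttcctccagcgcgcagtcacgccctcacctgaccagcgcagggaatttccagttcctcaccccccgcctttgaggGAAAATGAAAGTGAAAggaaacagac
RT1-M3-1 (chr20:1333367-1333616, minus strand): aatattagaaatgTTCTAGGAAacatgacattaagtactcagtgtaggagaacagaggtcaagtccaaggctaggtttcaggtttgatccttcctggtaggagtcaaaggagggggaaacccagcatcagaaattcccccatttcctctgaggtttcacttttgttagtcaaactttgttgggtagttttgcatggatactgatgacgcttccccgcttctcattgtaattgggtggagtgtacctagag
The Psmb10 promoter held the response element core at 73 and at 17 bases before the start, and Tap2 held it once, at 41 bases. In Tapbp the matches at 26 and 20 bases overlapped. RT1-M3-1 had no response element core in its window and a gamma-activated core at 237 bases. Both cores were present together before Ifitm3 and Ifitm7. A match in these letters was not tested for binding of any factor.

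The filter kept 14 of 27 class I heavy chain probes, 6 of 9 class II, 10 of 14 Ifi and 6 of 10 Irf and Stat probes, and all 4 peptide loading probes. B2m had the brightest member probe, with a mean log2 intensity of 13.39 and a range of 13.13 to 13.72 over the 30 rats. All 7 complement probes, for C1qa, C1qb, C1qc, C1r, C1s, C2 and C4b, and all 4 immunoproteasome probes were kept. The interferon-induced genes Ifit1, Ifit2, Ifit3 and Ifi44l were dropped, as were Irf2, Irf4, Irf8, 1 of 2 Stat2 probes, 13 class I probes and the class II genes RT1-DOa, RT1-DOb and RT1-Ha. Of the kept probes, 40 lay above the array median of 7.02 on all 30 arrays. The lowest were RT1-T24-1 on 5 arrays, RT1-N3 on 6, and RT1-T18, RT1-T24-2 and Ifi44 on 7 each. Intensities of different probes do not rank amounts of RNA, so these levels describe only how far each probe stood above the array median.

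**Figure D1:**
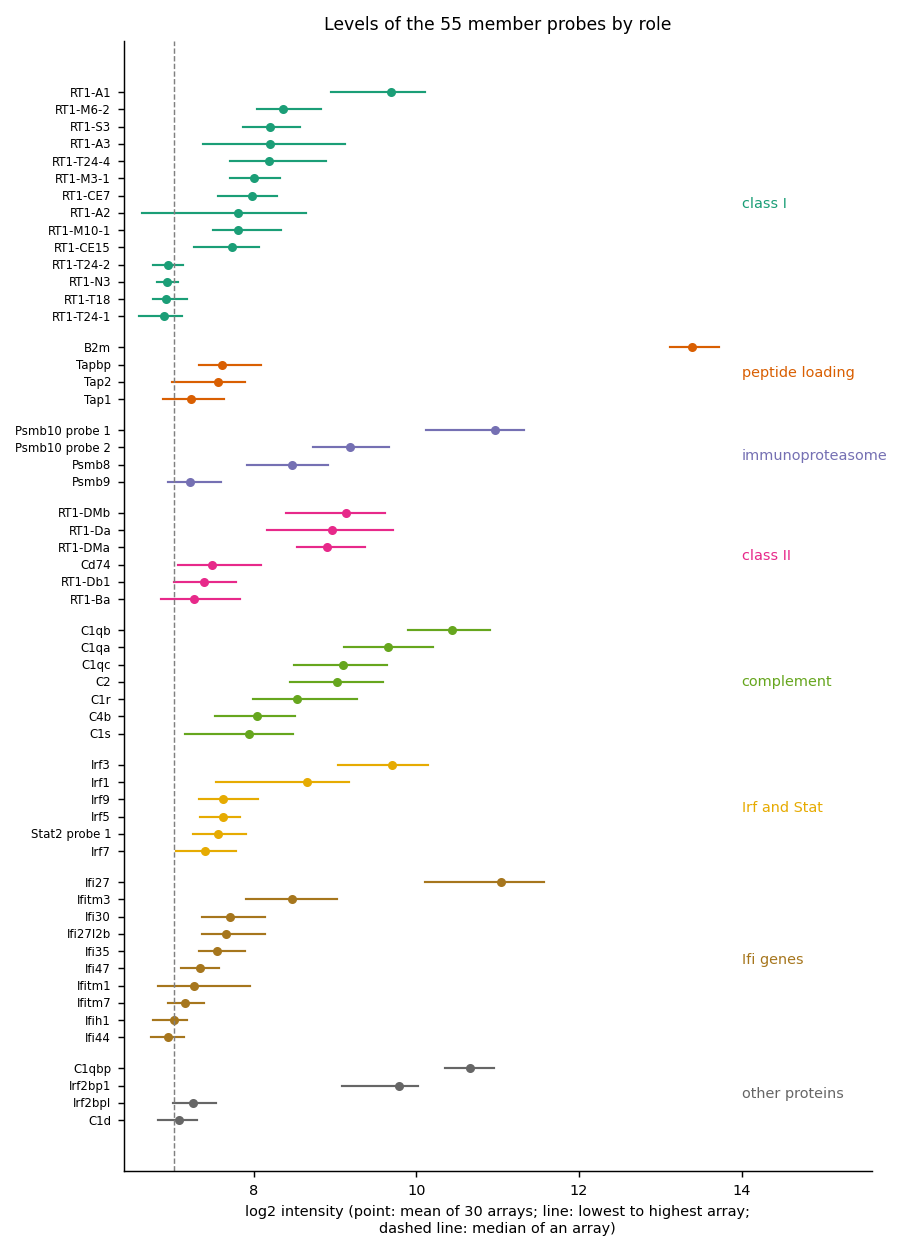
Mean log2 intensity (points) and lowest to highest rat (lines) of the 55 member probes over 30 rats, by role, with the array median of 7.02 dashed. B2m stands alone at 13.39, and 5 probes, RT1-T24-1, RT1-N3, RT1-T18, RT1-T24-2 and Ifi44, have means below the median.

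Few members differed between groups. In female extreme against female control rats 3 of 55 members were lower (5.45%), namely RT1-T18, Psmb10 probe 2 and C1qc, beside 3.18% of all 13308 probes, and 0 were higher, beside 3.35%. RT1-T18 passed the intensity filter through the female controls and so had to differ from them, which leaves 2 members in this count whose call the filter did not favour in that way. In female minimal against control rats 1 member, Psmb10 probe 2, was lower (1.82%), beside 1.15% of all probes, and 0 were higher, beside 0.827%. In male extreme against control rats 1 member, RT1-M3-1, was lower (1.82%), beside 0.496% of all probes, and 0 were higher, beside 0.301%. With 1 to 3 members called, these shares do not set the genes apart from the rest of the array. Female extreme against minimal rats gave 0 called members in limma with 7 at an unadjusted p under 0.05, beside 0.128% of all probes called and 9.48% unadjusted. Male minimal against control rats gave 0 with 6 unadjusted, beside 0% of all probes called and 5.15% unadjusted, and male extreme against minimal rats 0 with 5 unadjusted, beside 0% and 9.99%.

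Across both sexes, exposed against control rats gave 1 lower member, RT1-M3-1, beside 0.376% of all probes, and 0 higher, beside 0.383%. Males against females gave 2 higher members, beside 8.99% of all probes, and 2 lower, beside 10.2%. The exposure difference itself was more positive in males for 1 member, Psmb10 probe 2, beside 2.24% of all probes, and more negative for 1, Tap2, beside 2.25%. The extreme against minimal difference differed between the sexes for 0 members in limma, with 6 unadjusted, beside 0.0526% of all probes called and 11.8% unadjusted. The comparisons of extreme and minimal rats with controls share the control rats, so their values are given side by side below and their likeness is not counted as a result.

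The median member difference was -0.12 in female extreme against control rats, with 37 of 55 negative, and the median of all probes was close to 0, with 50.2% negative. It was 0.005 in female minimal against control rats, with 27 negative, beside 50% of all probes. In males it was -0.01 for extreme and -0.04 for minimal against control rats, with 31 and 36 of 55 negative beside 53.1% and 51.8% of all probes. In female extreme against minimal rats 37 members were negative and 18 positive (median -0.08, all probes 0.0002), and in male extreme against minimal rats 26 were negative. In exposed against control rats of both sexes 40 were negative and 15 positive (median -0.05, all probes -0.004). These comparisons share rats. In female extreme against control rats 10 of 14 class I, 6 of 7 complement, 3 of 4 immunoproteasome and 5 of 6 Irf and Stat probes were negative, of which 1, 1, 1 and 0 were called. With 0 called, 4 of 6 class II probes, 6 of 10 Ifi probes (median -0.02), 1 of 4 peptide loading probes (median 0.03) and 2 of 4 probes for other proteins were negative.

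**Figure D2:**
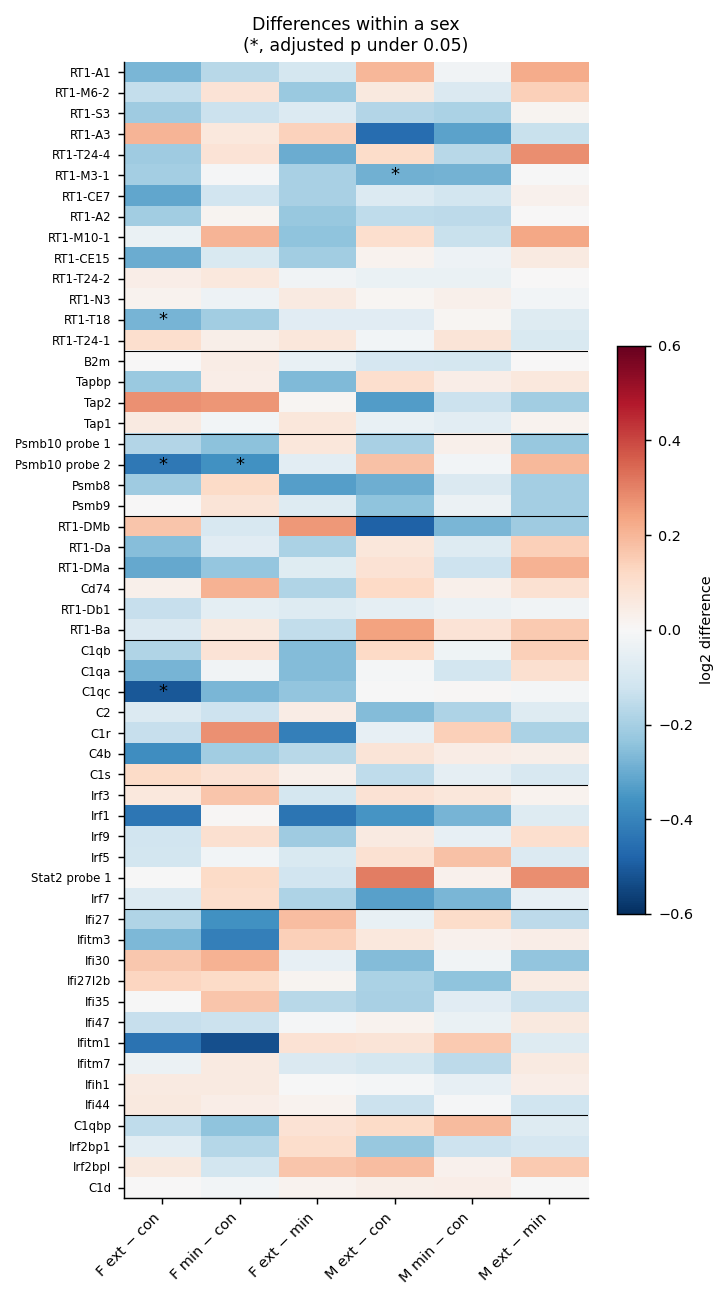
Log2 differences of the 55 member probes (rows, by role, separated by lines) in the 6 comparisons within a sex (F, female; M, male; con, control; min, minimal; ext, extreme), blue for lower and red for higher, with asterisks at an adjusted p under 0.05. Of all cells, 5 carry an asterisk, and all 5 are blue.

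Among class I heavy chains, RT1-M3-1 was the member called most often. All its calls used the same male controls, its group of highest mean, so they are not independent of each other. The gene encodes a class Ib molecule, of a family known in rodents for presenting peptides with a formylated first residue. Its log2 intensity was 8.32, 8.30, 8.30, 8.21 and 8.30 in male controls, 8.04, 7.95, 8.02, 8.03 and 7.97 in male minimal rats, and 8.09, 7.93, 8.17, 7.79 and 8.01 in male extreme rats. All 10 male responders lay below all male controls. In females it was 7.93, 8.00, 7.94, 7.99 and 8.02 in controls, 8.00, 7.81, 7.73, 8.14 and 8.15 in minimal rats, and 7.76, 7.77, 7.87, 7.74 and 7.71 in extreme rats. All female extreme rats lay below all female controls, and the minimal rats spread across both groups.

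The RT1-M3-1 difference was -0.29 ± 0.07 in male extreme against control rats (adjusted p = 0.0471) and -0.29 ± 0.07 in male minimal against control rats, where it was not called (adjusted p = 0.694). The adjustment depends on the whole array, and 0 of 13308 probes passed in the latter comparison. In females it was -0.20 ± 0.07 for extreme rats (adjusted p = 0.0776) and -0.01 ± 0.07 for minimal rats. The female extreme difference passed with array state as a covariate (-0.31, adjusted p = 0.0362) and with array weights (-0.21, adjusted p = 0.0427). With array weights the male minimal difference passed too (-0.30, adjusted p = 0.0261). Pooled over both sexes, RT1-M3-1 fell by 0.20 ± 0.04 in exposed rats (adjusted p = 0.0268), and it was higher in males than in females by 0.19 ± 0.04 (adjusted p = 0.00178). Male and female means were 8.29 and 7.98 in controls, 8.00 and 7.97 in minimal rats, and 8.00 and 7.77 in extreme rats.

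The male extreme call did not hold when 9 of the 10 arrays of that comparison were left out in turn, all except male extreme 3, and with array state as a covariate the difference was -0.16 (adjusted p = 0.677). The pooled difference was -0.20 with that covariate (adjusted p = 0.0142), and its call ended without female control 2, 4 or 5 or male control 1 or 2, while the difference stayed between -0.21 and -0.18 in all 30 fits that left out 1 array. A replicate block ended the male extreme call (adjusted p = 0.0645), although replicate number did not pair the male groups.

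RT1-T18, another class Ib gene, was measurable mainly in female controls. Its log2 intensity there was 7.05, 7.06, 7.18, 7.18 and 7.16, against 6.85, 6.89, 6.94, 6.99 and 6.91 in female minimal and 6.76, 6.85, 6.87, 6.86 and 6.89 in female extreme rats. Every female control lay above every female responder, and all 10 female responders lay under the array median. The difference was -0.28 ± 0.06 for extreme (adjusted p = 0.00451) and -0.21 ± 0.06 for minimal rats (adjusted p = 0.0552). Male groups ranged from 6.76 to 7.07 and overlapped. RT1-T18 passed the filter on 7 arrays, 5 of them female controls, so a probe kept in this way had to differ between those groups. The extreme difference was -0.23 with array state as a covariate (adjusted p = 0.0607). Within the lower state, where female extreme 2 was the only extreme rat, it was -0.27.

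The classical class I genes RT1-A1, RT1-A2 and RT1-A3, which lie next to each other on chromosome 20, differed more between single rats than between groups. RT1-A2 was 8.15, 7.98, 8.44, 8.22 and 7.27 in female controls, 8.06, 6.85, 8.34, 8.50 and 8.42 in female minimal and 8.15, 8.31, 7.87, 7.94 and 6.76 in female extreme rats. In males it was 8.12, 6.72, 8.17, 8.03 and 7.74 in controls, 7.74, 6.63, 8.23, 8.64 and 6.74 in minimal and 8.02, 6.78, 6.75, 8.20 and 8.26 in extreme rats. In 7 rats from 5 of the 6 groups the probe was at 6.63 to 6.85, under the array median, and in the other 23 it was at 7.27 to 8.64. The low rats were female minimal 2, female extreme 5, male control 2, male minimal 2 and 5, and male extreme 2 and 3.

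The spread of RT1-A2 within groups, an SD of 0.68, was greater than that of 98.9% of all probes, and RT1-A3 followed at 0.48 (96.9%). The median within-group SD was 0.178 for members and 0.154 for all probes. No RT1-A gene was called in any of the 10 comparisons. Class I genes are near copies of each other, so which of them a probe reads is uncertain.

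**Figure D3:**
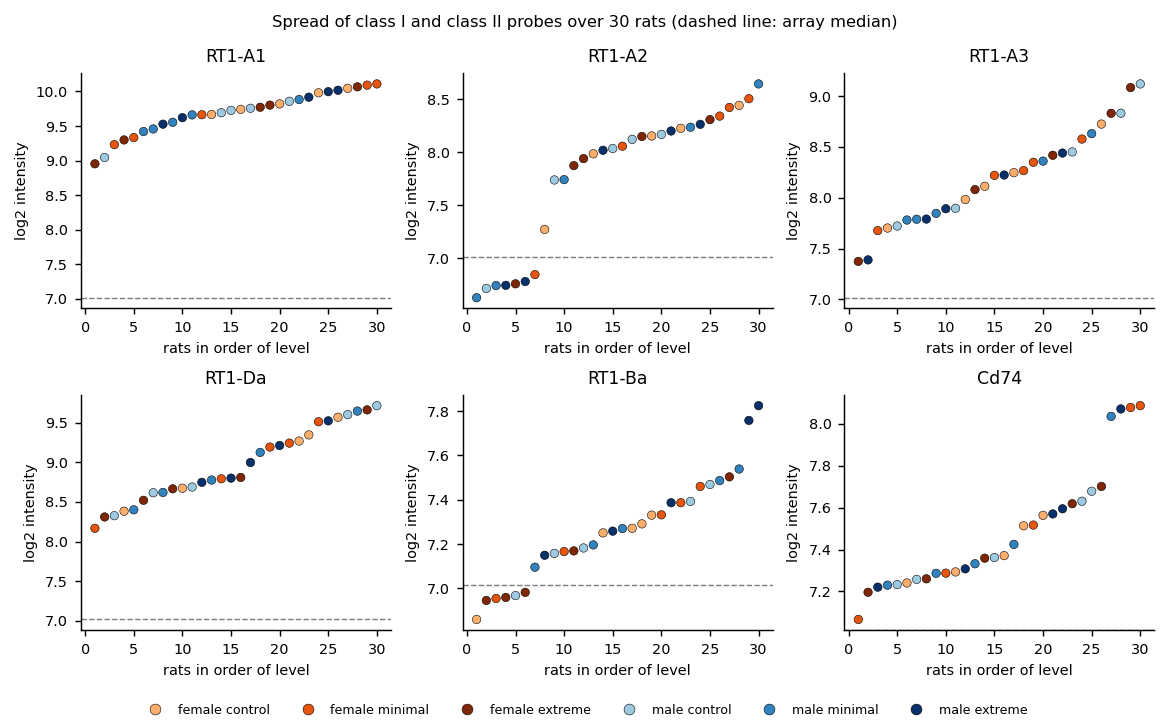
Log2 intensity of 3 class I and 3 class II probes in each of 30 rats, in order of level (x axis, rank of the rat), coloured by group, with the array median dashed. RT1-A2 drops to 6.63 to 6.85 in 7 rats of several groups, while RT1-A1 lies between 8.95 and 10.11 in all rats, and colours are mixed along each curve.

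Of the peptide loading genes, Tap2 differed between the sexes in its exposure difference. It was 7.47, 7.44, 7.40, 7.36 and 7.47 in female controls, 7.62, 7.61, 7.63, 7.89 and 7.72 in female minimal and 7.57, 7.89, 7.84, 7.75 and 7.46 in female extreme rats. In males it was 7.69, 7.67, 7.72, 7.71 and 7.57 in controls, 7.43, 7.64, 7.26, 7.79 and 7.60 in minimal and 7.71, 7.41, 7.29, 7.26 and 6.999 in extreme rats. Female controls lay below all female minimal rats and below 4 of 5 extreme rats, and 4 of 5 male extreme rats lay below all male controls.

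No Tap2 difference within a sex was called: it was 0.28 ± 0.10 (adjusted p = 0.104) and 0.27 ± 0.10 (adjusted p = 0.186) in female extreme and minimal rats, and -0.34 ± 0.10 (adjusted p = 0.117) and -0.13 ± 0.10 in male extreme and minimal rats. The difference between the sexes in the exposure difference was called, at -0.50 ± 0.13 (adjusted p = 0.0211), and remained called without any 1 of the 30 arrays. It was -0.47 with array state as a covariate, where the call was lost (adjusted p = 0.19).

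Tapbp was 7.43, 7.42, 7.56, 7.57 and 7.55 in female extreme rats, 7.80, 7.70, 7.71, 7.73 and 7.71 in controls and 7.71, 8.09, 7.78, 7.67 and 7.61 in minimal rats. All extreme rats lay below all other female rats. The differences did not pass the test, at -0.22 ± 0.08 against controls (adjusted p = 0.0824) and -0.26 ± 0.08 against minimal rats (adjusted p = 0.245). Groups that do not overlap in this way were found for 5 lower and 0 higher members in female extreme against control rats, beside 3.17% and 3.20% of all probes: RT1-M3-1, RT1-T18, Psmb10 probe 2, Tapbp and C1qbp. RT1-T18 was kept through the female controls, which leaves 4 whose separation the filter did not favour. B2m, which every class I molecule needs, was not called in any of the 10 comparisons, with group differences within a sex between -0.10 and 0.04.

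The immunoproteasome gene Psmb10 encodes the catalytic subunit that replaces the constitutive beta subunit with trypsin-like activity. Its probe 2 was 9.37, 9.63, 9.66, 9.50 and 9.15 in female controls, 9.21, 8.73, 9.36, 9.20 and 8.99 in female minimal and 9.06, 9.04, 8.94, 9.06 and 9.06 in female extreme rats. Every female extreme rat lay below every female control, and the minimal rats overlapped with both. Male controls were at 9.05, 9.24, 9.31, 9.05 and 9.01, male minimal rats at 9.18, 9.05, 9.20, 9.03 and 9.11, and male extreme rats at 9.20, 9.36, 9.39, 9.15 and 9.42. The male groups overlapped, with extreme rats in the upper part of the range.

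Psmb10 probe 2 fell by 0.43 ± 0.10 in female extreme (adjusted p = 0.00744) and by 0.36 ± 0.10 in female minimal rats (adjusted p = 0.0454) relative to controls. In males it differed by 0.18 ± 0.10 in extreme rats (adjusted p = 0.434) and -0.02 ± 0.10 in minimal rats. The exposure difference was 0.48 ± 0.12 more positive in males than in females (adjusted p = 0.0209), and without female control 2 this call was lost, at a value of at least 0.43 in all 30 fits that left out 1 array. With array state as a covariate this call was lost too. The female minimal call was lost when any of 7 arrays was left out, female control 1 to 4 or female minimal 1, 2 or 5, with differences from -0.44 to -0.27.

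The brighter Psmb10 probe 1 was not called in this fit, and the difference between the probes was not tested. It was 11.06, 11.21, 11.33, 10.98 and 10.86 in female controls and 10.87, 10.67, 10.82, 11.10 and 11.08 in female extreme rats, and these groups overlapped. Its difference was -0.18 (adjusted p = 0.535) in female extreme and -0.24 (adjusted p = 0.439) in female minimal rats. With array state as a covariate it was -0.52 (adjusted p = 0.046) and -0.50 (adjusted p = 0.0463), and probe 2 was at -0.44 (adjusted p = 0.0412) and -0.37 (adjusted p = 0.0732). Psmb8 and Psmb9, the other immunoproteasome subunits, whose genes lie beside Tap2 and Tap1 on chromosome 20, were not called in any comparison. In female extreme against control rats they differed by -0.21 and 0.00, and in male extreme against control rats by -0.29 and -0.24, with adjusted p from 0.206 to 0.997. Psmb9 was 7.20 to 7.50 in male controls and 6.98 to 7.17 in male extreme rats, without overlap.

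**Figure D4:**
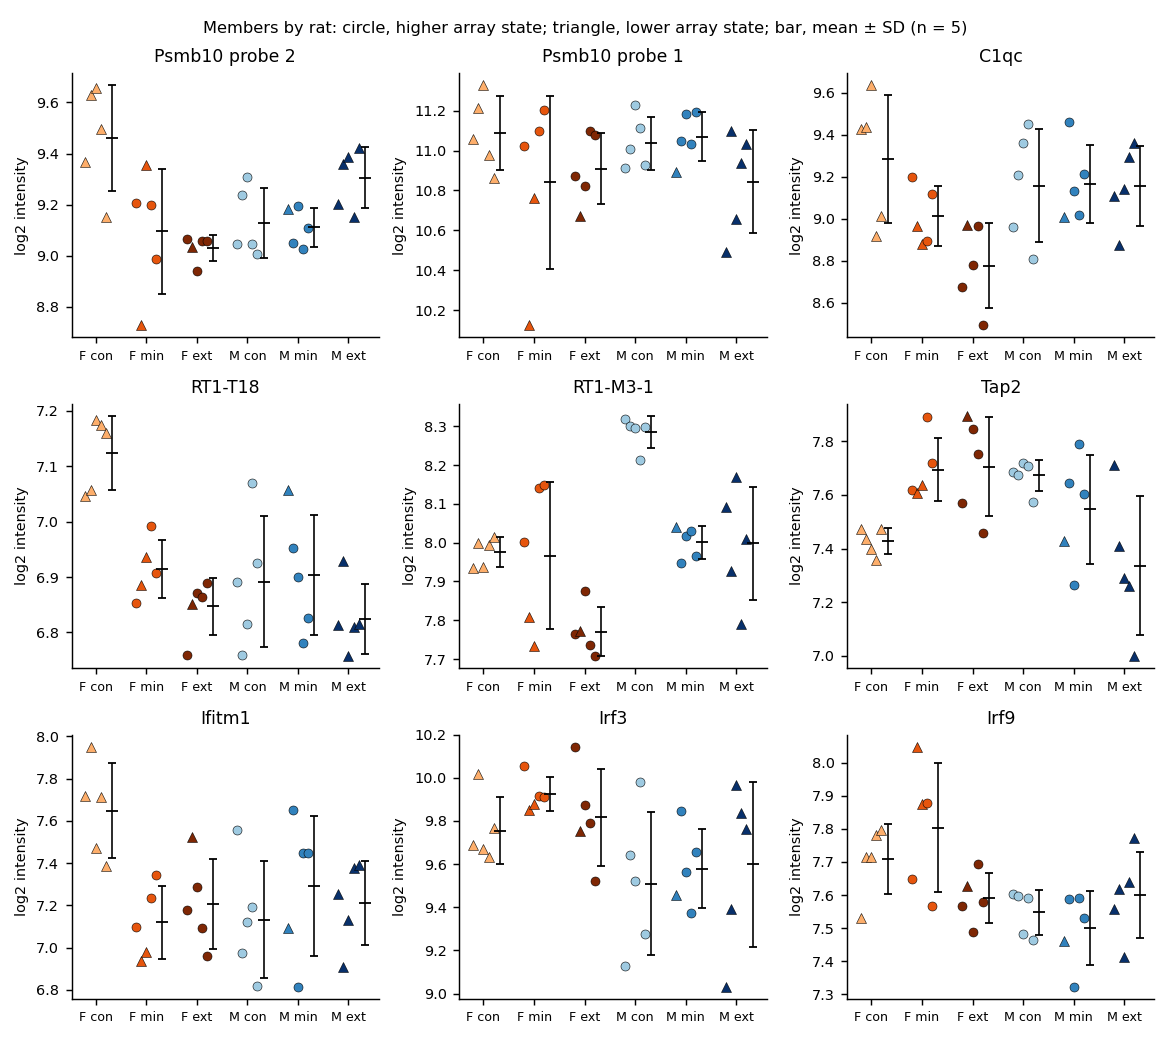
Log2 intensity of 9 member probes in each rat by group (F, female; M, male; con, control; min, minimal; ext, extreme), with the mean ± SD of 5 rats as a bar beside the points; triangles are lower-state arrays and circles higher-state arrays. Psmb10 probe 2 and RT1-T18 are highest in female controls, RT1-M3-1 is highest in male controls at 8.21 to 8.32, and Tap2 is low in female controls and in 4 of 5 male extreme rats.

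Class II genes were not called in any comparison. RT1-Da, the alpha chain of the rat DR-like molecule, ranged from 8.17 to 9.72, with group means of 8.79 to 9.06 and within-group SDs of 0.32 to 0.63. Its pooled within-group SD of 0.50 exceeded that of 97.3% of all probes. RT1-DMb, a chain of the molecule that exchanges peptides on class II, was 9.41 ± 0.24 (SD, n = 5) in male controls and 8.92 ± 0.36 (SD, n = 5) in male extreme rats, a difference of -0.49 that did not pass (adjusted p = 0.161).

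Of the class II pairs examined, Cd74 and RT1-Ba each varied with RT1-Da from rat to rat, and RT1-DMb did not detectably. The pairs Cd74 (the invariant chain, which escorts class II) with RT1-Da, RT1-Ba with RT1-Da, and Psmb8 with RT1-Da were chosen after their values were seen, so their p-values are no independent evidence, and Cd74 and RT1-Ba lie outside the rule for named genes. Over 30 rats, Cd74 and RT1-Da correlated with r = 0.772 and rho = 0.81, each with a permutation p of 1e-05, the smallest that 100000 resamples can give (adjusted p = 3.67e-05 and 5.5e-05 over 11 relations). Without the 2 rats farthest from the median, r was 0.801, and it was 0.759 within lower-state and 0.776 within higher-state arrays. RT1-Ba and RT1-Da correlated with r = 0.79 and rho = 0.843 (both permutation p = 1e-05, adjusted p = 3.67e-05 and 5.5e-05). Without the 2 farthest rats r was 0.849, with 0.70 and 0.911 within the lower and higher states. RT1-DMb, by the rule the partner of RT1-Da, did not correlate with it detectably (r = 0.107, rho = 0.127, permutation p = 0.575 and 0.502, adjusted p = 0.703 and 0.613).

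Psmb8 and RT1-Da correlated with r = 0.615 and rho = 0.603 (permutation p = 0.00035 and 0.00057, adjusted p = 0.000962 and 0.00157), with r = 0.64 without the 2 farthest rats and r = 0.679 and 0.582 within the lower and higher states. Psmb10 probe 1 and Psmb8 had r = 0.432 and rho = 0.384 (permutation p = 0.0164 and 0.0367, adjusted p = 0.0362 and 0.0674). Without the 2 farthest rats r was 0.418, and within states it was 0.547 and 0.25, so this relation was not detected within the higher state (permutation p = 0.353). Of the other relations, RT1-A1 with RT1-M6-2 passed by rank and not by r (rho = 0.416, r = 0.358, permutation p = 0.0223 and 0.0533, adjusted p = 0.049 and 0.0837), with r = 0.375 without the 2 farthest rats and r = 0.554 and -0.0553 within the lower and higher states. Irf3 with Irf1, B2m with Tapbp and C1qbp with Irf2bp1 had r from -0.173 to 0.0452 and did not pass. All rats share 1 normalisation and the amounts of each cell type were not measured.

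**Figure D5:**
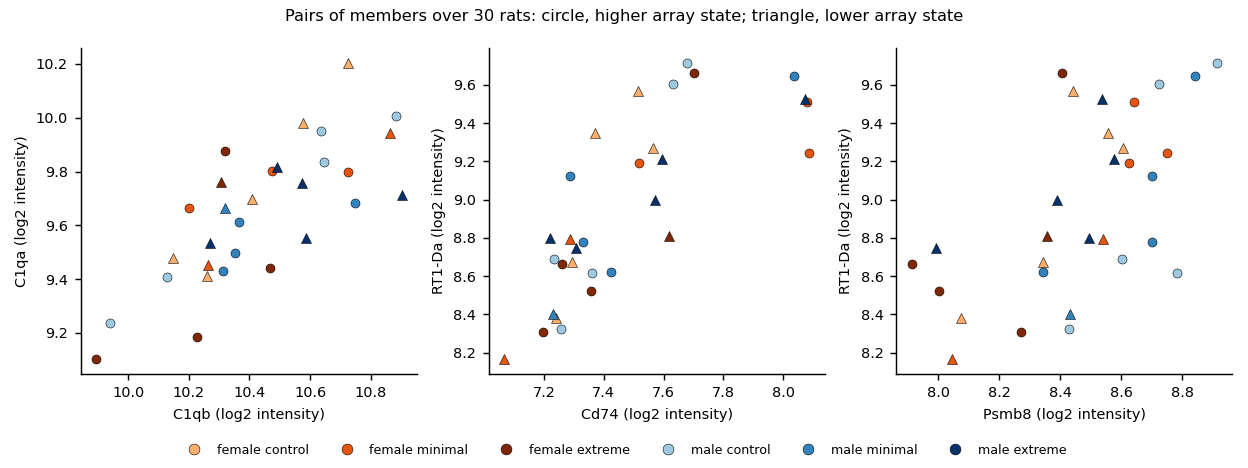
Log2 intensity of pairs of members over 30 rats, coloured by group, with triangles for lower-state and circles for higher-state arrays. C1qa rises with C1qb (r = 0.764) and RT1-Da with Cd74 (r = 0.772) in both states, and the cloud is wider for RT1-Da against Psmb8 (r = 0.615).

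C1qc, which encodes 1 of the 3 chains of C1q, was the 1 complement member called, in female extreme against control rats. It was 9.43, 9.44, 9.64, 8.92 and 9.01 in female controls, 9.20, 8.97, 8.88, 8.90 and 9.12 in minimal and 8.67, 8.97, 8.78, 8.96 and 8.49 in extreme rats. The controls split into 3 rats above 9.4 and 2 near the extreme group, with which they overlapped. The difference was -0.51 ± 0.14 (adjusted p = 0.0218). In males it was 0.00 and 0.01 for extreme and minimal rats, and the sexes did not differ in the exposure difference at the threshold (0.40, adjusted p = 0.173).

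The C1qc call was lost without female control 1, 2 or 3 or female extreme 1 or 5, with differences from -0.60 to -0.42. The C1qc difference was -0.55 with array state as a covariate (adjusted p = 0.0626). Within the lower state, where female extreme 2 was the only extreme rat, it was -0.31. The genes of the other chains, C1qa and C1qb, which neighbour C1qc on chromosome 5, differed by -0.28 (adjusted p = 0.327) and -0.18 (adjusted p = 0.57) in the same comparison. C1qa and C1qb rose and fell together over the 30 rats, with r = 0.764 and rho = 0.767 (permutation p = 1e-05, the smallest possible, and 2e-05, adjusted p = 3.67e-05 and 7.33e-05). Without the 2 farthest rats r was 0.779, and it was 0.668 and 0.809 within the lower and higher states. C1r and C1s, the proteases bound to C1q, were not called, and their within-group SDs of 0.40 and 0.32 exceeded those of 94.6% and 90.7% of all probes.

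Microglia make most C1q in the brain and, with perivascular macrophages, can carry class II, so their markers were set beside these values. Of 12 microglial genes listed, 9 were used. In female extreme against control rats limma called 0 of the 9, with 2 at an unadjusted p under 0.05, 7 were negative and the median difference was -0.10. The mean over these markers was 8.61 to 9.01 in female controls and 8.59 to 8.83 in female extreme rats. In amygdala tissue, fewer cells of a type and less RNA per cell cannot be told apart. Of 5 measured markers of blood leukocytes and perivascular macrophages, Cd3e, a T cell gene, was lower by 0.30 in female extreme rats (adjusted p = 0.00654), but it was above the array median on 5 arrays only, nearly all of them female controls, so the filter favoured that difference. All 6 measured endothelial markers and all 5 astrocyte markers were negative in that comparison without passing. Of 6 choroid plexus and meningeal markers, 3 were positive and 3 negative (median 0.03). The 1 called in limma, Ttr, was 2.79 higher in female extreme rats (adjusted p = 0.0324). Of 7 oligodendrocyte markers, 6 were positive and 1 negative (median 0.64), with 0 called in limma and 2 at an unadjusted p under 0.05. The part of these cell types in the member differences was not tested.

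Of the Irf and Stat factors, Irf3 and Irf9 differed between the sexes. As in every comparison of the sexes here, sex cannot be told apart from the F and R sets of rats. Irf3, which switches on interferon genes after nucleic acid sensing, was 9.63 to 10.02 in female controls, 9.85 to 10.06 in female minimal and 9.52 to 10.14 in female extreme rats. In males it was 9.13 to 9.98, 9.37 to 9.85 and 9.03 to 9.97 in the same order. The sexes overlapped, with the lowest rats among males, and the difference was -0.27 ± 0.09 (adjusted p = 0.029). It was lost without female extreme 1, male control 1 or male control 5.

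Irf9, the DNA-binding subunit of the interferon-stimulated gene factor, was 7.49 to 8.05 over females and 7.32 to 7.77 over males, with a difference of -0.15 ± 0.05 (adjusted p = 0.0194) that remained called without any 1 of the 30 arrays. Irf2bpl, a zinc finger protein outside these families, was 0.12 ± 0.04 higher in males (adjusted p = 0.0466), and this call remained when female control 2, female minimal 2 or 3, female extreme 2 or 4, male control 4, male minimal 1 or 5 or male extreme 4 was left out and was lost without any 1 of the other 21 arrays. All 4 sex calls remained with array state as a covariate, with adjusted p from 0.00327 to 0.0351. The sexes also differed in tissue markers: all 7 measured oligodendrocyte markers were lower in males, with a median of -1.27. Among 6 choroid plexus and meningeal markers limma called 1, Ttr, at -2.80 (adjusted p = 0.000222). That list was mixed, with 4 positive and 2 negative (median 0.099). The mean level of the oligodendrocyte markers was 9.04 to 12.21 over females and 8.99 to 10.86 over males, and its part in the sex differences was not tested.

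Irf1, an early interferon-induced factor, was 8.87, 9.07, 8.63, 8.47 and 8.51 in female controls and 8.43, 7.53, 8.25, 8.48 and 8.69 in female extreme rats. Female extreme 2, at 7.53, was the lowest of all 30 rats, and the groups overlapped. The difference of -0.43 ± 0.16 did not pass (adjusted p = 0.0948), and it ranged from -0.53 to -0.25 when each of the 10 arrays was left out. It passed in 1 of these fits, without female extreme 5 (-0.53, adjusted p = 0.0424), and was smallest without female extreme 2 (-0.25, adjusted p = 0.298). With array state as a covariate it was -0.74 (adjusted p = 0.0166), and with that covariate and without female extreme 2, a fit chosen after the data were seen, it was -0.41 (adjusted p = 0.337). Within the lower state female extreme 2 was the only extreme rat, so no value is given there. In male extreme against control rats Irf1 differed by -0.36 (adjusted p = 0.299), and this passed with male arrays only (adjusted p = 0.0415). Array state and group could not be told apart in that comparison. Over both sexes Irf1 had the lowest member difference in exposed against control rats, -0.26, and was not called. Irf7, which amplifies type I interferon, was 7.71, 7.61, 7.55, 7.55 and 7.52 in male controls, 7.41, 7.15, 7.45, 7.18 and 7.37 in minimal and 7.35, 7.43, 7.04, 7.05 and 7.46 in extreme rats. All male responders lay below all male controls, but the differences of -0.32 (adjusted p = 0.136) and -0.28 (adjusted p = 0.841) did not pass. Stat2 probe 1 was 7.42 to 7.60 in male controls and 7.70 to 7.89 in male extreme rats, without overlap and without passing (difference 0.31, adjusted p = 0.188). In that comparison 1 higher and 3 lower members did not overlap, beside 2.12% and 2.51% of all probes.

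Of the Ifi genes none was called in any comparison under the settings used throughout. Ifitm1, a membrane protein that hinders virus entry, came nearest. It was 7.72, 7.95, 7.47, 7.71 and 7.39 in female controls, 7.10, 6.94, 6.98, 7.24 and 7.35 in minimal and 7.18, 7.52, 7.29, 7.09 and 6.96 in extreme rats. All female minimal rats and 4 of 5 extreme rats lay below all controls. The differences were -0.53 ± 0.15 (adjusted p = 0.0548) and -0.44 (adjusted p = 0.069), and the exposure difference between the sexes was 0.60 ± 0.18 (adjusted p = 0.0504). The latter passed with array weights (0.66, adjusted p = 0.0141) and did not pass with array state as a covariate. Its neighbour on chromosome 1, Ifitm3, differed by -0.41 (adjusted p = 0.234) in female minimal and -0.27 (adjusted p = 0.399) in female extreme rats. Ifi27 was bright, at 10.11 to 11.57, and its relation to Ifitm3 was not called (r = 0.362, rho = 0.277, permutation p = 0.0477 and 0.137, adjusted p = 0.0837 and 0.215).

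Other genes of the same pathways were listed by name and not by their values. The interferon-gamma receptor genes Ifngr1 and Ifngr2 and the kinase genes Jak1 and Jak2 were above the median on all 30 arrays, while Ciita, the master regulator of class II transcription, was above it on 0 arrays, the feedback inhibitor gene Socs1 on 0 and the chemokine gene Cxcl10 on 1. Of 18 listed antigen presentation genes, among them the member Ifi30, 12 were measured, and in female extreme against control rats 1 was higher and 2 were lower, beside 3.35% and 3.18% of all probes. Pdia3, a chaperone of class I loading, was higher by 0.66 (adjusted p = 0.00728), while Canx (calnexin), which folds class I heavy chains, was at -0.79 (adjusted p = 0.0424) and Fcgrt, a class I-like receptor for IgG, at -0.71 (adjusted p = 0.00183). Pdia3 was also higher in female minimal rats, by 0.68 (adjusted p = 0.0134), and over both sexes in exposed rats, by 0.40 (adjusted p = 0.0326). Of 32 interferon pathway genes, 20 were measured, and 1, Trim21, an antibody receptor of the cytosol, was lower in female extreme rats, at -0.30 (adjusted p = 0.0159), beside the same 3.18% of all probes. Trim21 also differed between the sexes in the exposure difference, by 0.38 (adjusted p = 0.0206). Of 22 complement genes, 10 were measured. In comparisons within a sex limma called 0 of them, with 1 or 2 of the 10 at an unadjusted p under 0.05 in each. In male extreme against control rats 0 genes were called in any of the 3 lists, with 1, 2 and 2 unadjusted in the antigen presentation, interferon and complement lists. Between the sexes, Cfb was higher and Cd46 lower in males (differences 0.28 and -0.14, adjusted p = 0.0268 and 0.0129), the interferon-induced gene Mx2 was lower (difference -0.21, adjusted p = 0.0363), and the exposure difference of Cd59b, which blocks the end of the complement cascade, was more negative in males (-0.70, adjusted p = 0.0477).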

How the data were processed

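Amygdala RNA of 30 rats was labelled as biotin-cRNA and hybridised to Illumina BeadChips, per the labels' protocols. The authors deposited log2 intensities, and 22523 probes were read from that table. That scale was read from their range (6.38 to 15.06), and all columns share 1 median (7.02), as after quantile normalization. Which software, background correction and normalization were used is not given in the sources used here. Quantile normalization, if used, would hide a shift of all probes. A further deposited table was not used, because its 60 columns name no sample.

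Group and sex came from the labels, where every array has a rat identifier of its own. Probe genes came from the platform annotation, and 79 member symbols matched RefSeq. Probes were kept when they strictly exceeded the median intensity of an array in 5 or more rats, which left 13308, of which 9358 had a symbol. One mean per group was fitted with limma (version 3.58.1, under R 4.3.3), leaving 24 residual degrees of freedom, and 10 comparisons were taken from it, with Benjamini-Hochberg adjustment over all kept probes and a threshold of 0.05. The fit was tested on simulated data. Relations were tested two-sided with 100000 resamples. Some listed genes are not reported here. The planned test for background-corrected signals was replaced by this fit on the authors' log2 values.

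Members, gene lists and comparisons were chosen with earlier results of these data known, which holds for all tests here. Named members are those called in any comparison, the 3 of smallest p in each, and in each role the 2 of highest mean and the 2 of widest range. Other members that are named were chosen after their values were seen, among them RT1-Ba and Cd74. The array state was found in earlier work on these data and is the side of the widest gap of the Rpl37l1 probe (cut at 10.99). Alternatives were other filters, array weights, trend and robust variances, the replicate number as a block, the arrays of 1 sex, the array state, and each array left out.

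Between female minimal and female extreme rats, arrays of equal number deviated together from the group means (correlations 0.146 to 0.687, mean 0.421), while unequal numbers averaged -0.104; the best match of 4 of 5 arrays was the array of equal number. On this ground, and not from the labels, number was taken to pair those groups. The other 14 pairs of groups did not meet this rule. The replicate block was fitted over all 6 groups, so for those other pairs it rests on a number that did not pair them.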

Additional observations from a re-analysis of the deposited data

Results flagged for a closer look

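Values that stood apart from the other 4 rats of their group were looked for over 34 named members, which made 204 groups, and 16 arrays stood apart. Chance alone gives about 1 such array in 20 groups. No explanation was tested for them.

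Among class I genes, RT1-A2 was at 6.85 in female minimal 2 (others 8.06 to 8.50) and at 6.76 in female extreme 5 (others 7.87 to 8.31), RT1-A1 at 9.04 in male control 5, RT1-M3-1 at 8.21 in male control 4, RT1-M6-2 at 8.52 in female extreme 2, and RT1-S3 at 8.29 in female extreme 1 and at 8.20 in male control 3. In the immunoproteasome, Psmb10 probe 2 was at 8.94 in female extreme 3 and Psmb9 at 7.60 in female minimal 5. In complement, C1qb was at 10.75 in male minimal 2 (others 10.31 to 10.37) and C1s at 8.37 in female control 1 (others 7.73 to 7.89). Among interferon genes, Ifi27l2b was at 7.37 in female control 5 and at 7.36 in male extreme 4, and Stat2 probe 1 was at 7.90 in male minimal 1. Irf2bp1 was at 9.44 in female minimal 2 and at 9.08 in male extreme 1.

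The difference between exposed and control rats itself differed between the sexes for 2 members, at 0.48 ± 0.12 (limma adjusted p = 0.0209) for Psmb10 probe 2 and at -0.50 ± 0.13 (limma adjusted p = 0.0211) for Tap2, each as the male minus the female difference on the log2 scale. Neither was called with array state as a covariate.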

How the results depend on the processing

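The 12 called member values were computed again under the alternatives, which gave 340 values, most of them with 1 array left out. Of these values 268 stayed called, 72 lost the call and 0 changed direction. Counts of called members moved by more than 1.5 times in the following comparisons. In female extreme against control rats, 3 became 1 with female arrays only. No count is given there within the lower array state, which held 1 female extreme rat. In female minimal against control rats, 1 became 0 with the stricter filter, with array weights, with female arrays only and within the lower state. In male extreme against control rats, 1 became 0 without the filter, with trend and robust variances, with the replicate block and with array state as a covariate, and 2 with array weights and with male arrays only. Array weights raised male minimal against control from 0 to 1, exposed against control from 1 to 2, the sex difference from 4 to 8 and the sex difference of the exposure effect from 2 to 7, which fell to 0 with array state as a covariate. With the replicate block, 0 members were called between the paired female minimal and extreme groups, as without it. RT1-M3-1 in male extreme rats (-0.29) was the one reported call that the block ended, in groups that replicate number did not pair. Leaving out 1 array in turn gave 2 to 5 called members for female extreme against control, 0 to 2 for female minimal against control, 0 to 1 for male extreme against control, 0 to 2 for exposed against control, 2 to 6 for the sex difference, 1 to 5 for its exposure term, and 0 in each of the other 4 comparisons. Calls over all probes in these fits are not given beside the counts, so no move is read as particular to these genes. The cause of these moves was not tested. The limits are 5 rats per group, probes near background, and an array state that cannot be told apart from group in male extreme rats.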
